A study of Mus musculus with 6 samples.

Results

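The hnRNP proteins and the main families of splicing regulators and poly(A)-binding proteins were examined in RNA of cells sorted as muscle satellite cells. Satellite cells are the resident stem cells that repair fibres. Markers of several other cell types were present in the RNA of both conditions, as described below. Members were taken by gene symbol alone, as every row whose symbol starts with Hnrnp, Hnrp, Srsf, Pcbp, Ptbp, Celf, Mbnl, Rbfox, Khdrbs, Pabpc or Pabpn, except Hnrnpd, Hnrnpab and Hnrnpa0. This gave 59 of the 23361 genes, in 10 families, and the authors tested 50 of them for a difference between conditions. The series holds 6 samples, 3 wild-type and 3 AUF1-null, from mice aged 4 months that were bred through a C57BL/6 strain on 129 background. Hindlimb muscle was dissociated with collagenase and cells carrying the surface proteoglycan Sdc4 were sorted. The labels do not name the allele, the deleted part of the gene or the number of animals behind a sample, so any spread between samples that entered the authors' test could be technical.

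The authors deposited 1 level per gene for each of 2 conditions, in a table of the Cuffdiff layout, taken to be on the FPKM scale (fragments scaled to transcript length and library size), in which levels of different genes can be compared per length. No spread between samples stands beside a level, and the sequencing depth is unknown. The table calls its conditions q1 and q2 without a genotype, so every direction is that of q2 relative to q1. The targeted gene cannot settle this, because Hnrnpd was listed at 7.5 FPKM in q1 against 5.59 in q2 and did not pass the test (Cuffdiff p = 0.291, q = 0.999 per the authors' deposited table).

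These proteins decide how a transcript is cut, joined and kept. Proteins of the hnRNP class coat nascent RNA and often silence splice sites, whereas SR proteins bind exonic enhancers through RNA recognition motifs and recruit the splicing machinery through domains rich in arginine and serine. In skeletal muscle, muscleblind-like and CELF proteins act in opposite ways on many of the same exons, Rbfox proteins bind the element UGCAUG beside muscle exons, and polypyrimidine tract-binding proteins hold muscle exons back in cells that have not differentiated. AUF1 is itself an hnRNP protein, encoded by Hnrnpd, and is known for binding AU-rich elements of mRNAs.

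No member was called between the conditions at a q below 0.05, against 0.612% of all 14858 tested genes (91 genes), in the authors' Cuffdiff comparison. The smallest q among the members was 0.718 per the authors' deposited table. At an unadjusted Cuffdiff p below 0.05 there were 2 of 50 members, or 4% against a background of 5.99%, namely Rbfox1, which was higher in q2 (background for higher genes 3.72%), and Hnrnpul2, which was lower (background 2.27%). Members lay on both sides of 0, 23 above and 27 below, with a median log2 fold change of -0.02. Over all tested genes the median was -0.01 with quartiles of -0.31 and 0.29, and the members' quartiles were -0.30 and 0.25. The members' log2 fold changes reached from -0.87 to 1.52, and 49 of 50 differed by less than 2-fold, as did 87.9% of the tested genes that were above 0 on both sides. Among those at 1 FPKM or more on the higher side, the shares were 97.9% of members and 90.5% of all tested genes. The missing calls do not show that levels were equal: the smallest fold among called genes above 0 on both sides was 2.50 per the authors' deposited table, and Rbfox1 was the only tested member past it.

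**Figure D1:**
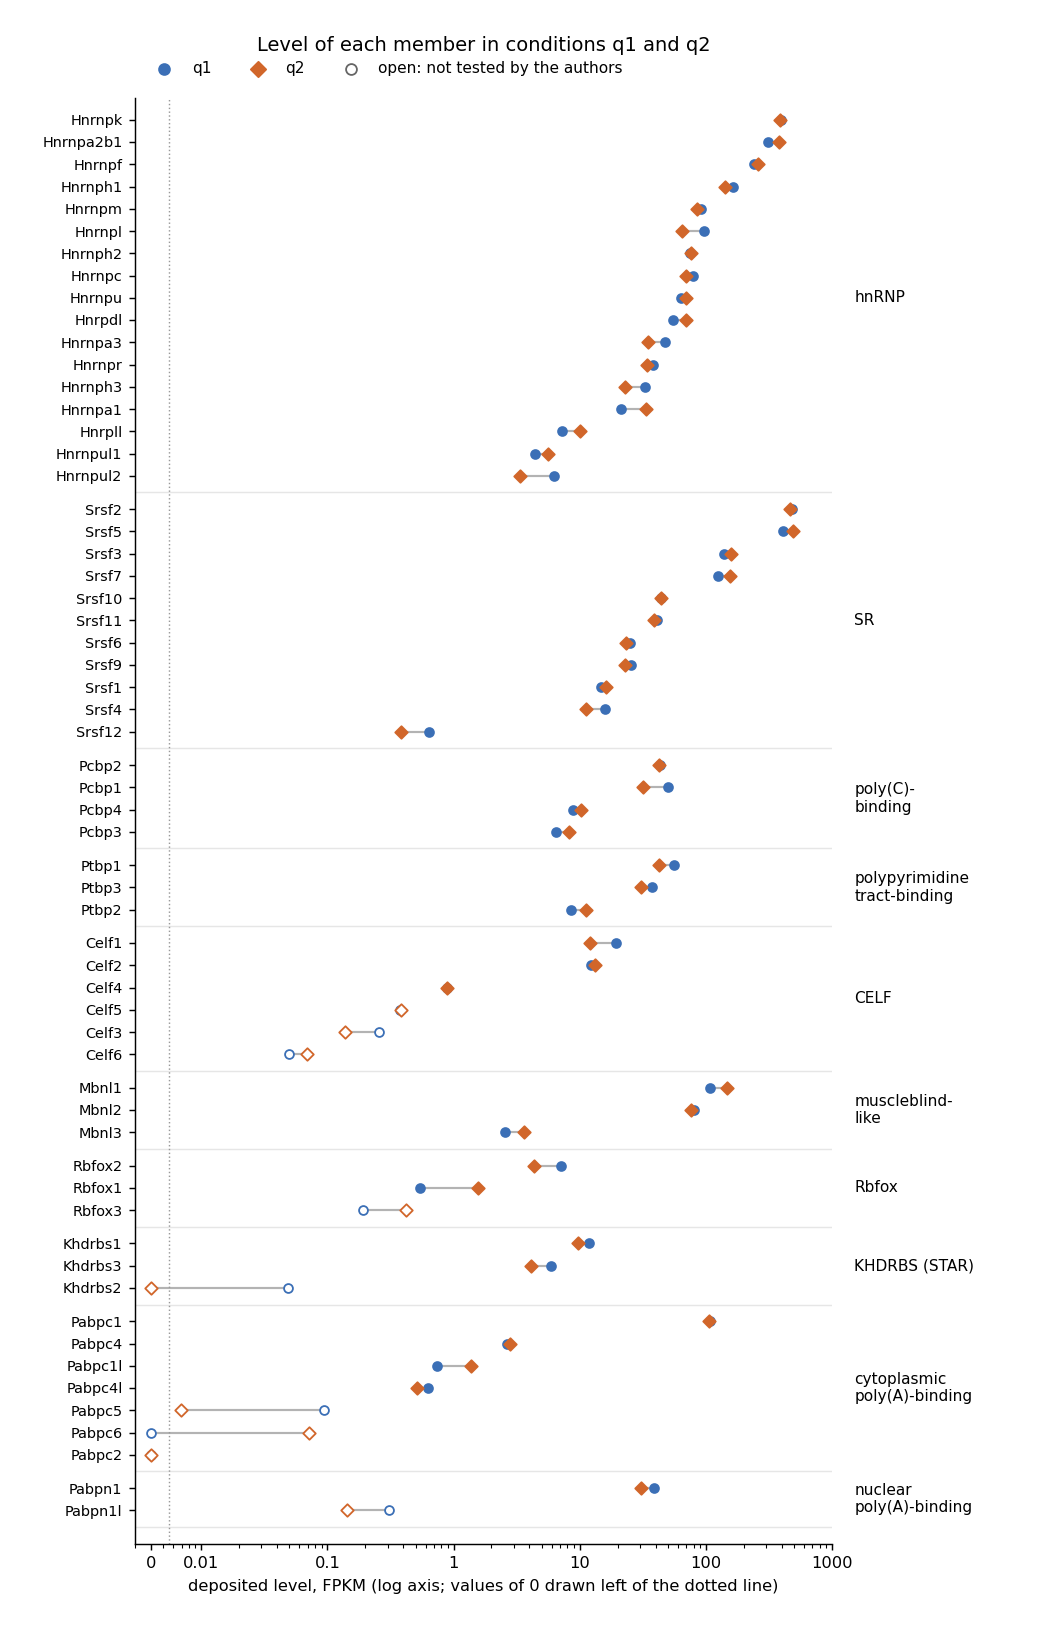
Level of each of the 59 members in q1 (circles) and q2 (diamonds), in FPKM on a log axis, grouped by family; open symbols mark the 9 members that the authors did not test. Of the 50 tested members 49 differed by less than 2-fold, which is a short distance on this wide log axis. The families' most abundant genes differ widely in level.

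As a class the members were abundant. The median tested member stood at the 82.4 percentile of tested genes by mean level, 30 of 50 lay above the upper quartile, and 10 had a mean of 100 FPKM or more. Their median level was 37.9 in q1 and 31.4 in q2, against 7.60 in both conditions over all tested genes. The other end of the range held genes at or near 0, several of them known from brain or germ line: 12 of 59 members had a mean below 1 FPKM, and 9 of these were not tested. Summed over all members, the level was 3669 in q1 and 3771 in q2 per the authors' deposited table.

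The 17 hnRNP genes split into 8 above 0 and 9 below (median -0.02 on the log2 scale), and none of the most abundant passed the test. Hnrnpk, whose KH domains bind C-rich RNA, was listed at 391.6 FPKM in q1 against 386.4 in q2 (log2 fold change -0.02, Cuffdiff p = 0.962 per the authors' deposited table). Hnrnpa2b1, a repressor of splice sites that also sorts RNAs for transport, was listed at 313.7 and 381.3, a log2 fold change of 0.28 that lies beyond the members' upper quartile per the authors' deposited table. Hnrnpf and Hnrnph1, which bind G-rich runs, were listed at 238.9 and 257.5 and at 165.2 and 140.8 per the authors' deposited table. Hnrnpm (91.5 and 84.6), Hnrnpc (79.7 and 69.4), Hnrnpu (63.7 and 70.0) and Hnrnph2 (74.9 and 76.3) followed per the authors' deposited table. The summed hnRNP level was 1729 in q1 and 1745 in q2.

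The largest log2 fold changes of the family, in both directions, were those of Hnrnpul2, Hnrnpl and Hnrnpa1. Hnrnpul2, a nuclear protein related to Hnrnpu, at chr19:8819401-8834142 (GRCm38), was listed at 6.22 FPKM in q1 against 3.39 in q2, a log2 fold change of -0.87 (Cuffdiff p = 0.0379, q = 0.764 per the authors' deposited table). Its relative Hnrnpul1 lay the other way, at 4.40 and 5.64 per the authors' deposited table. Hnrnpl, which binds CA repeats, at chr7:28810890-28822266, was listed at 96.3 and 64.6 (log2 fold change -0.58, Cuffdiff p = 0.126 per the authors' deposited table), while its paralog Hnrpll was listed at 7.22 and 9.97 (log2 fold change 0.47, Cuffdiff p = 0.271 per the authors' deposited table). Hnrnpa1, a classical antagonist of SR proteins, was listed at 21.3 and 33.3 (log2 fold change 0.65, Cuffdiff p = 0.271 per the authors' deposited table) and Hnrnpa3 at 47.8 and 35.1. None of these passed the adjustment. Reads of Hnrnpa1 are uncertain, since a second row at the same position joins it with Gm10052, at 7.63 and 12.6 per the authors' deposited table; the 2 rows summed to 28.9 and 45.9. In the table Hnrnpa3 has the same position as Gm6793, Hnrnpk as Rmi1 and Mir7-1, and Hnrnph3 as Rufy2, so their reads may be shared as well. The remaining members were Hnrnpr, at 38.3 and 34.1, and Hnrnph3, at 33.2 and 22.9 per the authors' deposited table.

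Hnrpdl (now Hnrnpdl), the closest relative of AUF1 among the members, is the neighbour of Hnrnpd on chromosome 5, at chr5:100033579-100039222, 54640 bases beyond its end. It was listed at 55.2 FPKM in q1 against 69.9 in q2, a log2 fold change of 0.34 (Cuffdiff p = 0.318, q = 0.999 per the authors' deposited table). Hnrnpab and Hnrnpa0, relatives of AUF1 that are not members, were listed at 34.6 and 26.3 and at 25.7 and 25.4 per the authors' deposited table. Hnrpdl was thus the one of these 4 genes listed higher in q2, and no difference among them was tested. Among the hnRNP A genes that are members, Hnrnpa1 and Hnrnpa2b1 were also listed higher in q2 and Hnrnpa3 lower.

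No SR protein gene passed the test. The 11 genes, all tested, had a median of -0.06 on the log2 scale, with 5 above 0, 6 below and none at an unadjusted p below 0.05. A pair of genes made up most of the family: Srsf2, which binds exonic enhancers, was listed at 485.8 and 467.6 (log2 fold change -0.06, Cuffdiff p = 0.908 per the authors' deposited table), and Srsf5 at 411.95 and 494.5. Srsf3, the smallest SR protein and an export adaptor, was listed at 140.5 and 158.5, and Srsf7, its close relative with a zinc knuckle, at 125.7 and 155.9 per the authors' deposited table. Srsf10, which is active as a repressor when dephosphorylated, was listed at 44.0 and 44.1 per the authors' deposited table, a log2 fold change of 0.00. Srsf11 (40.9 and 38.5), Srsf6 (24.9 and 23.3), Srsf9 (25.5 and 22.7) and Srsf1 (14.8 and 16.3), the founding member of the family, had log2 fold changes between -0.16 and 0.13 per the authors' deposited table. The lowest values of the family's log2 fold change were those of Srsf4, listed at 15.97 and 11.3, and of Srsf12, which was low at 0.64 and 0.39 per the authors' deposited table. Summed, SR protein transcripts stood at 1331 in q1 and 1433 in q2.

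**Figure D2:**
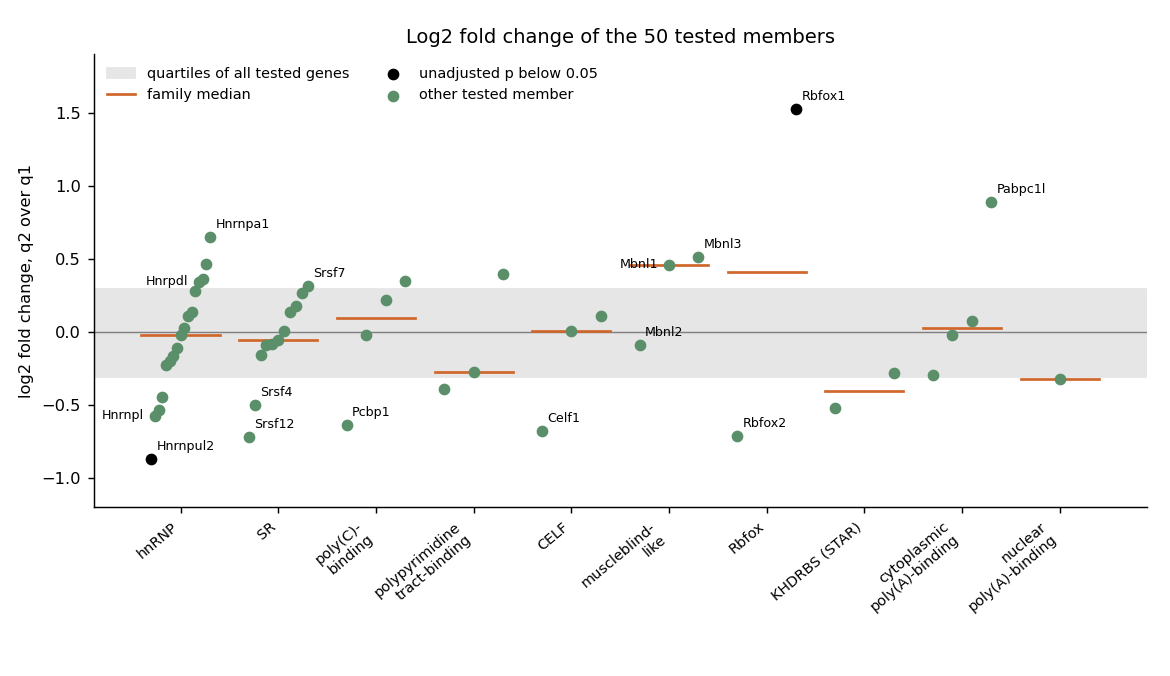
Log2 fold change (q2 over q1) of the 50 tested members by family, with the family median (line) and the quartiles of all tested genes (grey band, -0.31 to 0.29). Black points are the 2 members at an unadjusted p below 0.05, Rbfox1 at 1.52 and Hnrnpul2 at -0.87, and no point passed the adjusted test.

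Muscleblind-like proteins are known for their loss of function in myotonic dystrophy, and Mbnl1 and Mbnl2 made up nearly all of the family's summed level. Mbnl1, at chr3:60472830-60629748, was listed at 106.9 FPKM in q1 against 146.9 in q2, a log2 fold change of 0.46 (Cuffdiff p = 0.274, q = 0.999 per the authors' deposited table). Mbnl2 was listed at 81.1 and 76.2, and Mbnl3, which is known from proliferating myoblasts, at 2.54 and 3.62 (log2 fold change 0.51, Cuffdiff p = 0.231 per the authors' deposited table). Mbnl1 made up 56.1% of the family's summed level in q1 and 64.8% in q2.

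Of the 3 tested CELF genes, 2 lay above 0 (median log2 fold change 0.005), and Celf1 lay below. Celf1, at chr2:90940397-91019497, which binds GU-rich elements and also promotes mRNA decay, was listed at 19.3 FPKM in q1 against 12.0 in q2, a log2 fold change of -0.68 (Cuffdiff p = 0.0749, q = 0.964 per the authors' deposited table). Celf2 was listed at 12.3 and 13.3, so that the family's most abundant gene was Celf1 in q1 and Celf2 in q2 per the authors' deposited table. Celf2 has the same position in the table as 5031426D15Rik, so reads may be shared. Celf4, a neuronal relative, was listed at 0.89 on both sides, and Celf3, Celf5 and Celf6 lay between 0.05 and 0.38 and were not tested per the authors' deposited table. The ratio of Mbnl1 to Celf1 was 5.55 in q1 and 12.2 in q2, a difference without a test, and this ratio was picked after the levels were seen.

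Rbfox genes were low, and their make-up differed most among the families. Rbfox2, the broadly expressed member, at chr15:77078990-77307053, was listed at 7.13 FPKM in q1 against 4.36 in q2, a log2 fold change of -0.71 (Cuffdiff p = 0.0732, q = 0.952 per the authors' deposited table). Rbfox1, the member known from neurons and muscle fibres, at chr16:5884793-7412480, was listed at 0.54 FPKM in q1 against 1.56 in q2, a 2.87-fold difference that did not pass the adjustment (log2 fold change 1.52, Cuffdiff p = 0.0297, q = 0.718 per the authors' deposited table). With a pseudocount of 1 its log2 fold change was 0.73, as the value in q1 is close to 0. Rbfox1 also has the same position in the table as 1700123O21Rik, so reads may be shared. Rbfox3, the neuronal antigen NeuN, was listed at 0.19 and 0.42 and not tested per the authors' deposited table. Rbfox2 accounted for 90.7% of the family's summed level in q1 and 68.8% in q2, and Rbfox1 for 6.89% and 24.6%.

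Rbfox1 and Mbnl1 were listed higher in q2, and so were most genes of several marker lists. All 10 neutrophil markers and all 10 cell cycle genes lay above 0, as did the tested contractile genes. Of 10 contractile genes 9 were tested and all 9 were above 0, with a median of 0.80 on the log2 scale; their summed level was 1717 in q1 and 3281 in q2, none was at 0, and 2 had an unadjusted p below 0.05 without passing the adjustment. Of 6 neuronal markers 5 were tested, all below 0 and none called (median -0.78, summed level 101 and 66.7). Most of that sum was Stmn2, at 95.5 and 63.5 per the authors' deposited table. Snap25, Nefl and Tubb3 lay below 1 FPKM on both sides, so their log2 fold changes rest on values near 0. The part of fibre RNA, or of RNA from any other cell type, in the levels of Rbfox1 and Mbnl1 was not tested. In bulk RNA of sorted cells, a different number of cells of a type and a different amount of RNA per cell cannot be told apart.

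**Figure D3:**
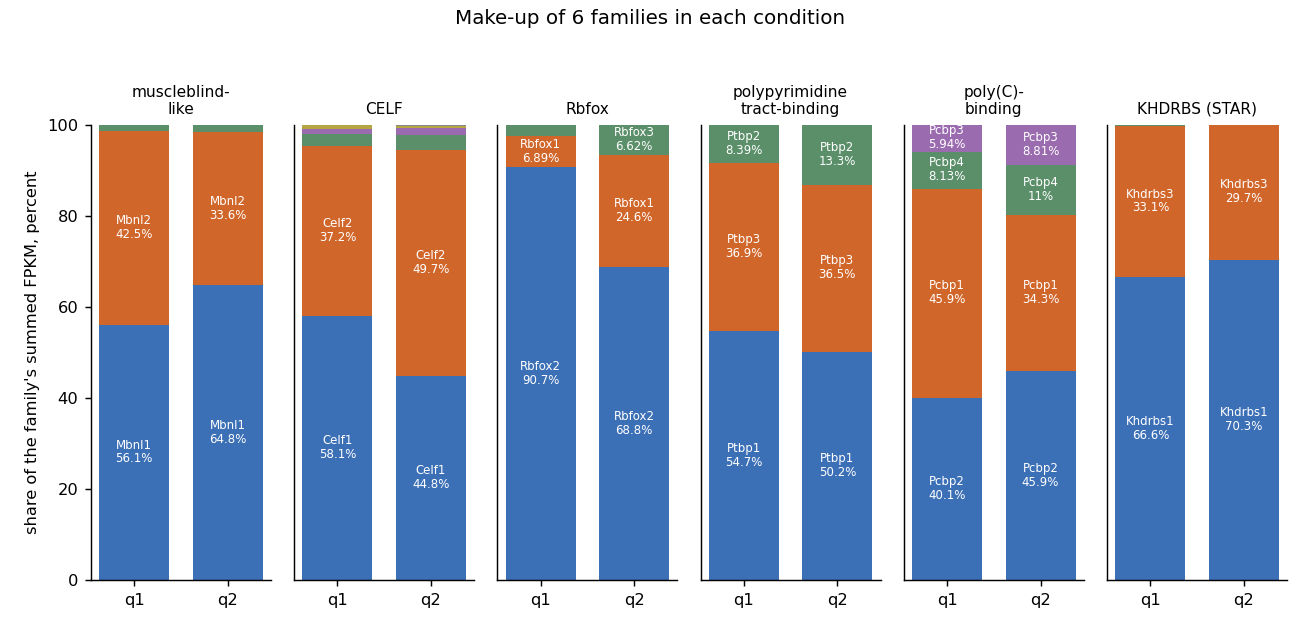
Share of each gene in the summed FPKM of its family in q1 and q2, for 6 families with 3 to 6 members; colours separate the genes of a family and have no meaning across families. Rbfox2 took 90.7% of its family in q1 and 68.8% in q2, Mbnl1 56.1% and 64.8%, and Celf1 58.1% and 44.8%.

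Polypyrimidine tract-binding genes were led by Ptbp1, the repressor of muscle and neuronal exons. It was listed at 55.6 FPKM in q1 against 42.4 in q2, a log2 fold change of -0.39 (Cuffdiff p = 0.774 per the authors' deposited table). That level is uncertain, because the table gives Ptbp1 the position chr10:79697305-80369637, which it shares with 45 other rows, among them the neutrophil gene Elane. Ptbp3 was listed at 37.4 and 30.9, and Ptbp2, the form known to replace Ptbp1 in neurons, at 8.52 and 11.2 per the authors' deposited table. The family median was -0.28, with 1 gene above 0 and 2 below.

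Poly(C)-binding genes also lay on both sides. Pcbp1, an intronless gene at chr6:86524497-86526165 whose product binds C-rich RNA and carries iron, was listed at 49.7 FPKM in q1 against 31.9 in q2, a log2 fold change of -0.64 (Cuffdiff p = 0.120, q = 0.999 per the authors' deposited table). Pcbp2 was listed at 43.4 and 42.7 (log2 fold change -0.02, Cuffdiff p = 0.971 per the authors' deposited table), Pcbp4 at 8.81 and 10.2 and Pcbp3 at 6.43 and 8.19 per the authors' deposited table. Pcbp1 thus led the family in q1 and Pcbp2 in q2, with shares of 45.9% and 34.3% for Pcbp1. Reads may be shared here too, since the table gives Pcbp2 the position of Map3k12 and Pcbp4 that of Gpr62.

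Both tested genes of the KHDRBS family were below 0. Khdrbs1 encodes Sam68, a signal-regulated splicing factor of the STAR class, and was listed at 11.8 and 9.73 per the authors' deposited table. Khdrbs3 was listed at 5.89 and 4.10, and Khdrbs2, which has the position of Gm5415 and Gm9839, at 0.05 and 0 without a test per the authors' deposited table. Their unadjusted Cuffdiff p-values were 0.469 and 0.328 per the authors' deposited table.

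Poly(A)-binding transcripts came almost wholly from a single cytoplasmic and a single nuclear gene. Pabpc1, which coats the poly(A) tail and joins it to the translation machinery, was listed at 106.96 FPKM in q1 against 105.5 in q2 (log2 fold change -0.02, Cuffdiff p = 0.957 per the authors' deposited table) and made up 96.3% and 95.7% of its family. Pabpc4 was listed at 2.66 and 2.81, Pabpc1l, known from oocytes, at 0.74 and 1.36 (log2 fold change 0.89, or 0.45 with a pseudocount of 1, Cuffdiff p = 0.280 per the authors' deposited table), and Pabpc4l at 0.63 and 0.51 per the authors' deposited table. Pabpc5, at 0.09 and 0.01, Pabpc6, at 0 and 0.07, and Pabpc2, at 0 on both sides, were not tested per the authors' deposited table. Pabpn1, the nuclear protein that sets poly(A) tail length and is mutated in oculopharyngeal muscular dystrophy, was listed at 38.6 and 30.9, a log2 fold change of -0.32 (Cuffdiff p = 0.380 per the authors' deposited table). Pabpn1l was listed at 0.31 and 0.14 without a test per the authors' deposited table.

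Some paralogs lay on opposite sides of 0 and others on the same side. Of the 10 families, 8 held tested members on both sides. Between q1 and q2, the ratio of Hnrnpul1 to Hnrnpul2 went from 0.71 to 1.66, that of Hnrnpa1 to Hnrnpa3 from 0.44 to 0.95, that of Hnrpll to Hnrnpl from 0.075 to 0.15 and that of Ptbp2 to Ptbp1 from 0.15 to 0.26. The ratio of Celf2 to Celf1 was 0.64 and 1.11. Pcbp2 and Pcbp1 both lay below 0, and their ratio was 0.87 and 1.34, while Hnrnpa2b1 and Hnrnpa1 both lay above 0, with a ratio of 14.8 and 11.4. These pairs were picked after the levels were seen, no ratio was tested, and a family whose genes lie around 0 holds both signs in any case. Ratios with Hnrnpa1, Hnrnpa3, Celf2, Pcbp2 or Ptbp1 also rest on uncertain levels, because these genes share their positions with other rows.

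Because AUF1 binds AU-rich elements, the longest annotated 3' UTR of each member (GENCODE vM21, GRCm38) was searched for the heptamer TATTTAT on the transcript strand. All 59 members had an annotated 3' UTR and 19 held the heptamer. Among tested genes it was found in 16 of 50 members, or 32.0%, and in 29.5% of all 13059 tested genes with an annotated 3' UTR. Between 1000 and 3000 bases of 3' UTR, the shares were 9 of 19 members, or 47.4%, and 36.7% of 5055 genes. The following windows of 30 bases, 5' to 3' on the transcript strand, show the heptamer in capitals in members named above from both sides of 0; the site of Mbnl2 lies in the nonamer TTATTTATT.
Celf1 (chr2:91015315-91015344, + strand): ggggtggagaaTATTTATtacctaaattat
Mbnl1 (chr3:60627276-60627305, + strand): ttgtagtgtaaTATTTATgcatactctact
Mbnl1 (chr3:60627374-60627403, + strand): tattttgcttcTATTTATagcctctgtcaa
Mbnl2 (chr14:120431215-120431244, + strand): attttgcttttTATTTATttataatgtaat
Hnrnpa1 (chr15:103244685-103244714, + strand): catttggaattTATTTATggttgcttgggt
Hnrpll (chr17:80030041-80030070, - strand): aatataatttgTATTTATtatttaatcaaa
Srsf7 (chr17:80201208-80201237, - strand): attattggccaTATTTATatgggcctgtat
Hnrnpc (chr14:52073445-52073474, - strand): attgggtattgTATTTATtcaggtgactcc

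Members that carry these letters lay on both sides of 0. Of the 16 tested members with the heptamer, 7 were above 0 and 9 below, with a median log2 fold change of -0.06; the 34 without it had a median of -0.02. Over all tested genes the medians were -0.07 with and 0.01 without the heptamer, and 1639 genes with it lay above 0 and 2212 below. In the class of 1000 to 3000 bases, 3 of the 9 members with the heptamer were above 0 and 6 below. For all tested genes of that class with the heptamer, 811 were above and 1040 below. The members' medians in this class were -0.09 with and 0.08 without it, against -0.07 and -0.02 for all its tested genes. Celf1 (19.3 and 12.0), with 1 heptamer, and Mbnl1 (106.9 and 146.9), with 2, lay on opposite sides per the authors' deposited table, and Mbnl2, with 3, was listed at 81.1 and 76.2. Hnrnpa1, Hnrpll and Srsf7, with 1 each, lay above 0, and Hnrnpc, also with 1, below. At this site of Mbnl2 a pair of heptamers overlap each other and the nonamer. Rbfox1, Rbfox2, Hnrnpul2, Pcbp1 and Hnrnpl held none in these 3' UTRs. A match is a description of the letters and not a binding site shown by these data.

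Most abundant members had promoters with many CG dinucleotides. Promoter windows of 300 bases (RefSeq, GRCm38.p6, 250 before and 50 after the start site) were present for 46 members, and the window with the most CG was taken where a gene had several starts. Of the 32 members with a mean of 10 FPKM or more, 29 held at least 20 CG, or 90.6%, with a median of 32.5, against 58.6% and a median of 22 for all tested genes at that level. Of the 6 members with a mean of 1 to 10 FPKM, 2 did (33.3%, median 19), against 54.6% and a median of 21 for tested genes. Of the 8 members with a mean below 1 FPKM, 4 did (50%, median 19), against 33.7% and a median of 11 for tested genes. This last comparison is unlike, because most of these members were not tested, namely Celf3, Celf5, Celf6, Rbfox3, Khdrbs2 and Pabpn1l. CG was counted on 1 strand, as it reads the same on both. TATAAA, searched on the gene's strand, was present in a window of 7 of 46 members, tested or not, or 15.2%. It was present in a window of 5.94% of tested genes, and in 8.32% of all windows. The 250 bases before the start of Srsf2, the member with the highest mean, and of Rbfox1, the member with the largest difference, are shown with CG in capitals.
Srsf2 (chr11:116853095-116853344, - strand): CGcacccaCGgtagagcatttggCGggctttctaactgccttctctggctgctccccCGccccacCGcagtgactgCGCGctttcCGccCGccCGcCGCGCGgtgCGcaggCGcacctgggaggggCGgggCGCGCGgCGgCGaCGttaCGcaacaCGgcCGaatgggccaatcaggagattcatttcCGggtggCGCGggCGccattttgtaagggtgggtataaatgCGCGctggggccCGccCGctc
Rbfox1 (chr16:5884543-5884792, + strand): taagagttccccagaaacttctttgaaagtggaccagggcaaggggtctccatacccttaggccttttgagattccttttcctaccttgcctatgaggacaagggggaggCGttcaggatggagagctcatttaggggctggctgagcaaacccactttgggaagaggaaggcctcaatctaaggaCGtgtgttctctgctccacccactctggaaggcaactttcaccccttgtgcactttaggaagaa
Srsf2 had 33 CG in this stretch and Rbfox1 had 2, and their mean levels were 477 and 1.05 FPKM. The stretch shown is that of the start nearest the gene's listed position. The windows of 300 bases used for the counts held 39 CG for Srsf2 and 7 for Rbfox1.

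**Figure D4:**
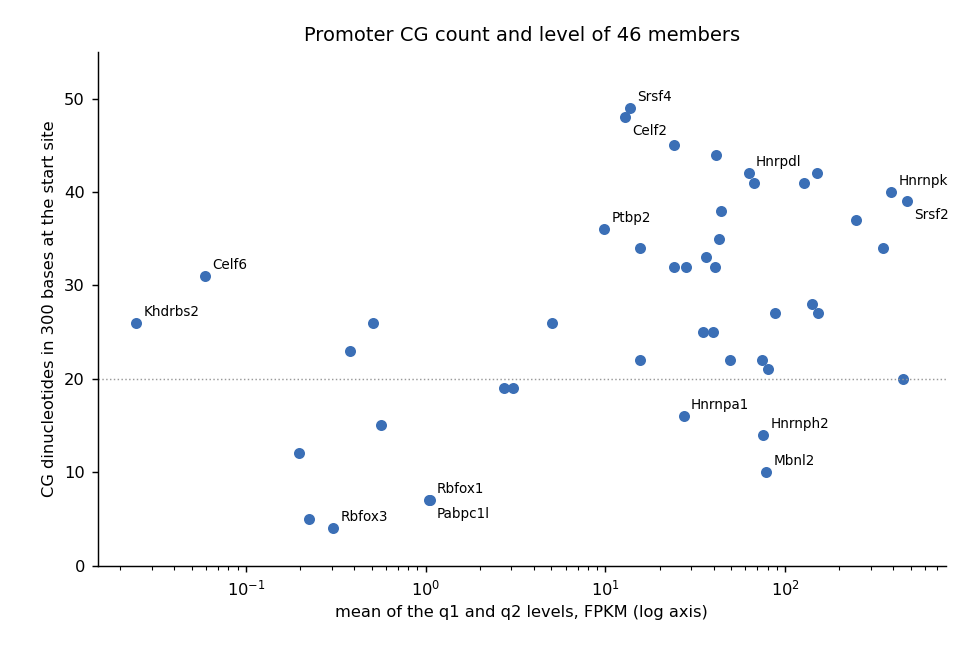
Number of CG dinucleotides in the 300 bases at the start site against the mean level in FPKM (log axis) for the 46 members with a promoter sequence; the dotted line marks 20 CG. Nearly all members at 10 FPKM or more lie on or above the line, with Mbnl2, Hnrnph2 and Hnrnpa1 below it.

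The 4 lists of other RNA-processing genes likewise held no called gene, against 0.612% of all tested genes. At that share, lists of 25 to 45 tested genes can readily hold none. Of 45 core spliceosome genes, 29 lay above and 16 below 0 (median log2 fold change 0.07), with no unadjusted p below 0.05; the Sm protein genes Snrpg and Snrpd2 were listed at 302.5 and 359.9 and at 158.7 and 170.9 per the authors' deposited table. Kinases and relatives of SR proteins lay mostly lower, 20 of 25 below 0 with a median of -0.16 (over all tested genes, 7589 of 14779 lay below 0), again with no unadjusted p below 0.05. The kinase gene Clk1, whose product phosphorylates SR proteins, was listed at 158.1 and 194.9, and Tra2b, an exonic enhancer protein, at 177.7 and 150.7 per the authors' deposited table. Among 35 tested genes of other alternative splicing regulators, 14 lay above and 21 below 0 (median -0.06), and Rbm47 had the only unadjusted p below 0.05, at 3.59 and 6.90 (Cuffdiff p = 0.0452, q = 0.803 per the authors' deposited table). For cleavage, polyadenylation and poly(A) tail proteins, 13 of 27 lay above 0 (median -0.01); Paip2, an inhibitor of poly(A)-binding protein, was listed at 160.8 and 182.5, and Eif4a1 at 143.3 and 142.4 per the authors' deposited table.

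**Figure D5:**
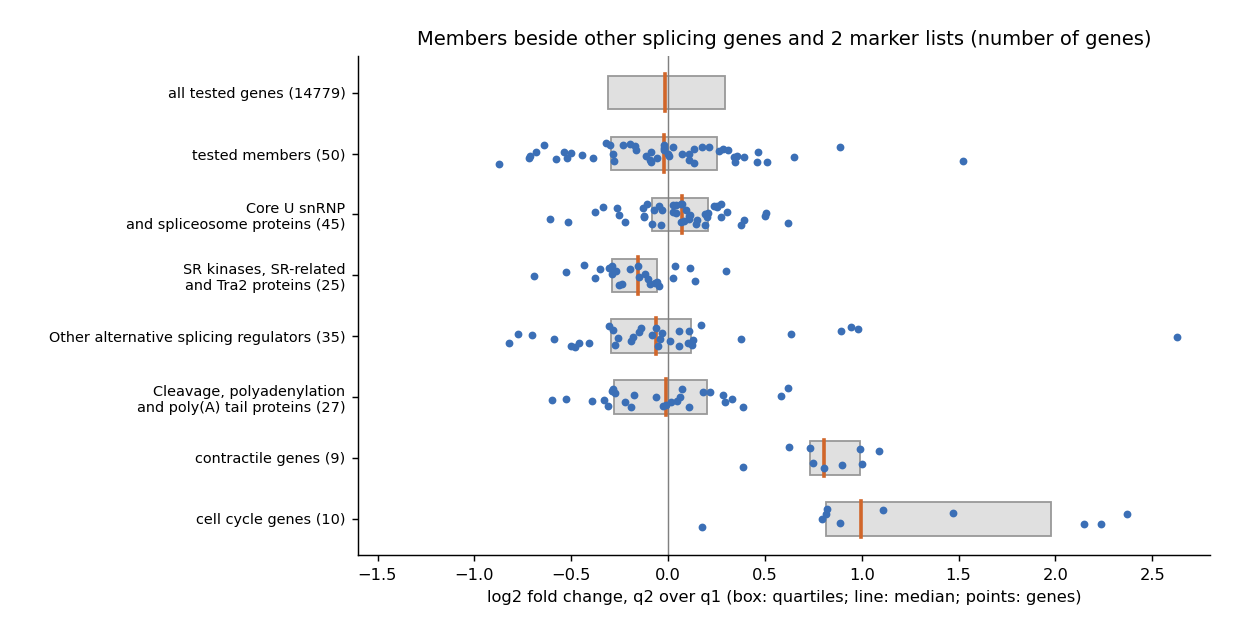
Log2 fold change (q2 over q1) for all tested genes, the tested members, 4 lists of other RNA-processing genes and the contractile and cell cycle lists; boxes span the quartiles, lines are medians and points are genes. The members and the 4 RNA-processing lists have medians between -0.16 and 0.07, and the contractile and cell cycle lists 0.80 and 0.998.

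Markers of several cell types other than satellite cells were present in both conditions. All 10 neutrophil markers lay above 0 and 9 were called higher in q2, with summed levels of 1189 and 15473 per the authors' deposited table. The 10 cell cycle genes were also all above 0 (median 0.998, summed 149 and 206), and Ccnb2 was called. Most of the cell cycle sum was Pcna, at 125.2 and 141.3 per the authors' deposited table. Satellite cell genes (4 of 10 above 0) summed to 324 and 391, and to 152 and 121 without Sdc4, the protein used for sorting. They included Pax7 at only 1.16 and 0.85 per the authors' deposited table. Endothelial markers were all 10 below 0 (summed 18215 and 15399), and most of their sum was Fabp4, at 14386 and 12031.5 per the authors' deposited table. Fibroblast (summed 5371 and 4683) and Schwann cell markers (1385 and 1463) lay on both sides of 0. None of the endothelial, fibroblast or Schwann cell markers was called. Of 8 pericyte markers 6 lay below 0 and none was called (median -0.34); their summed level was 3590 and 4646, and 1310.2 and 1094 without Rgs5. The single genes Sdc4, Pcna, Fabp4 and Rgs5 were picked after the sums were seen. No marker of these lists was at 0. The part of each type in the members' levels was not tested.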

How the data were processed

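RNA sequencing covered 3 wild-type and 3 AUF1-null samples, grouped by the labels. TopHat2 2.0.9 and Cufflinks 2.2.1 were used, per the submitters' processing notes; annotation, strand setting and library normalization are not given in these sources. The authors deposited 1 Cuffdiff-style table with 1 value per gene and condition; its headings name no unit, and such tables hold FPKM pooled over samples. The authors also deposited a log2 fold change, a test statistic (a score, not used) and p-values with q-values adjusted over 14858 tested genes. The notes name mm9, but the positions of all 59 members overlapped their GRCm38 genes in RefSeq, so positions are given in GRCm38, 1-based. Hnrpdl and Hnrpll were matched as synonyms.

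Called means tested by the authors with a q below 0.05; no test between samples was run. Lists were described by counts and medians over genes above 0 on both sides. Every member is named with its levels; fuller statistics went to members at an unadjusted p below 0.05, the most abundant of each family, the 5 largest log2 fold changes in each direction where the higher level was at least 1 FPKM, and Hnrpdl; from other lists up to 4 members at that p, or else the 2 most abundant. The members and lists were chosen with earlier results of these data known. Ratios between genes, the heptamer and the promoter counts were chosen after levels were seen. The adjustment, summaries and motif search were tested on simulated data. Python 3.11.15, numpy 2.4.6 and pandas 2.3.3 were used. Alternatives covered the q threshold, the unadjusted p, low values, pseudocounts of 0.1 and 1 and centring. Protein sequences were not analysed here.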

Additional observations from a re-analysis of the deposited data

How the results depend on the processing

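The count of called members was 0 at a q below 0.05, 0.01 and 0.10, and also after leaving out genes below 1 FPKM and adjusting again; it was 2 at the unadjusted p below 0.05. The median log2 fold change of the Rbfox genes was 0.41 as deposited and 0.064 with a pseudocount of 1, since 1 of its 2 tested genes is near 0. In the other 53 combinations of a summary and an alternative, medians moved by less than 0.1 on the log2 scale and counts by less than 1.5 times. For single members, 6 of 57 values moved by 0.1 or more, all of them towards 0 with a pseudocount, and none changed sign. Centring shifts every value by 0.01, which took the median of the cleavage and poly(A) list from -0.0095 to 0.0049. No paired analysis was possible because the table holds 1 pooled value per condition, and for the same reason no sample could be left out. Depth is unknown, so no interval is given for any level.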
